A study of Homo sapiens with 18 samples.

Results

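RNA-seq values of A549 cells collected 24 h after 10 Gy X-ray radiation were compared with those of control A549 cells. The comparison covered all genes that reached a value of 1 in no fewer than 3 of the 6 A549 libraries, which were 11993 of the 18475 genes in the table. In the study, 3 human lung cell lines (A549, H446 and BEAS-2B) were each sequenced as control and irradiated cells, to ask whether ionizing radiation acts differently on lung epithelial and lung cancer cells. There were 18 libraries, 3 per line and treatment. A549 is an established lung adenocarcinoma line that carries an inactivating KEAP1 mutation and has lost CDKN2A. H446 is a small cell lung cancer line, and BEAS-2B a bronchial epithelial line immortalized with viral T antigen. All 6 A549 libraries carry the same genotype label, wild type, and the groups differ only in the treatment label and the title (before or after). The controls, titled before, have no dose and no collection time of their own. If they were collected before radiation, effects of dose and of time in culture cannot be told apart. The labels do not say whether the 3 libraries of a group came from separate cultures, so the p-values measure the spread between these libraries, which may be technical. A single line grown as a monoculture holds none of the immune, vascular and stromal cells of an irradiated lung.

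Ionizing radiation breaks DNA, and the damage kinases stabilize p53, a transcription factor that induces genes of cell cycle arrest, cell death and repair together with its own inhibitor MDM2. ATF4 is the transcription factor of the integrated stress response, which switches on amino acid synthesis, amino acid transport and tRNA charging genes. YAP and TAZ are coactivators of the TEAD factors and drive genes of matrix, cytoskeleton and growth, while the immediate early genes (EGR1, MYC, JUN family) respond to ERK signalling.

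The values were read as FPKM (the table states no unit), which are relative to the total of each library, so that a change in the share of cells in a state and a change in RNA per cell cannot be told apart. Library totals were between 484169 and 501302 in the controls and between 491026 and 500604 after radiation, and the read number per library is unknown. Across the 11993 genes, Pearson correlations of log2(FPKM + 1) between libraries were between 0.996 and 0.998 within groups and between 0.982 and 0.984 across groups. The label was checked against marker genes. The epithelial keratins KRT8 (519, 539 and 541 FPKM in the controls) and KRT18 (348, 369 and 342) were abundant, EPCAM was under 1 in every library, and CDKN2A was listed at 0 in all 3 controls and at 0, 0.09 and 0 after radiation. Of 10 alveolar type II markers, 9 were under 1 in all 6 libraries, among them the surfactant gene SFTPC and the lineage factor NKX2-1, while ABCA3 was between 8.41 and 8.74 in the controls. The 4 endothelial markers were under 1 in all 6 libraries, as were 5 of 6 airway, 2 of 4 neuroendocrine, 4 of 7 fibroblast and 3 of 5 leukocyte markers. Of the other leukocyte markers, the lysosomal gene CD68 was at 26.8, 29.6 and 26.4 FPKM in the controls and 33.5, 29.7 and 29.7 after radiation (log2 fold change 0.16, SE 0.06, adjusted p = 0.0363), and CD14 reached 1.12.

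Many genes of A549 cells differed in level between the irradiated and control libraries, most of them by little. With limma at a Benjamini-Hochberg adjusted p under 0.05, 6202 genes (51.7%) differed, 3030 (25.3%) of them higher and 3172 (26.4%) lower after 10 Gy. The median absolute log2 fold change of these genes was 0.29. Only 937 (7.81%) changed by at least 0.5 on the log2 scale and 107 (0.892%) by at least 1, of which 56 were higher and 51 lower. The control and irradiated libraries did not overlap for 7019 genes (58.5%). Of 159 tested genes with a control mean under 1, 91 differed, all of them higher, since a gene that low passes the filter mainly through its irradiated libraries. Because so many genes passed, the counts below are read against these shares and against the median log2 fold change of all genes tested, which was -0.00396.

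**Figure D1:**
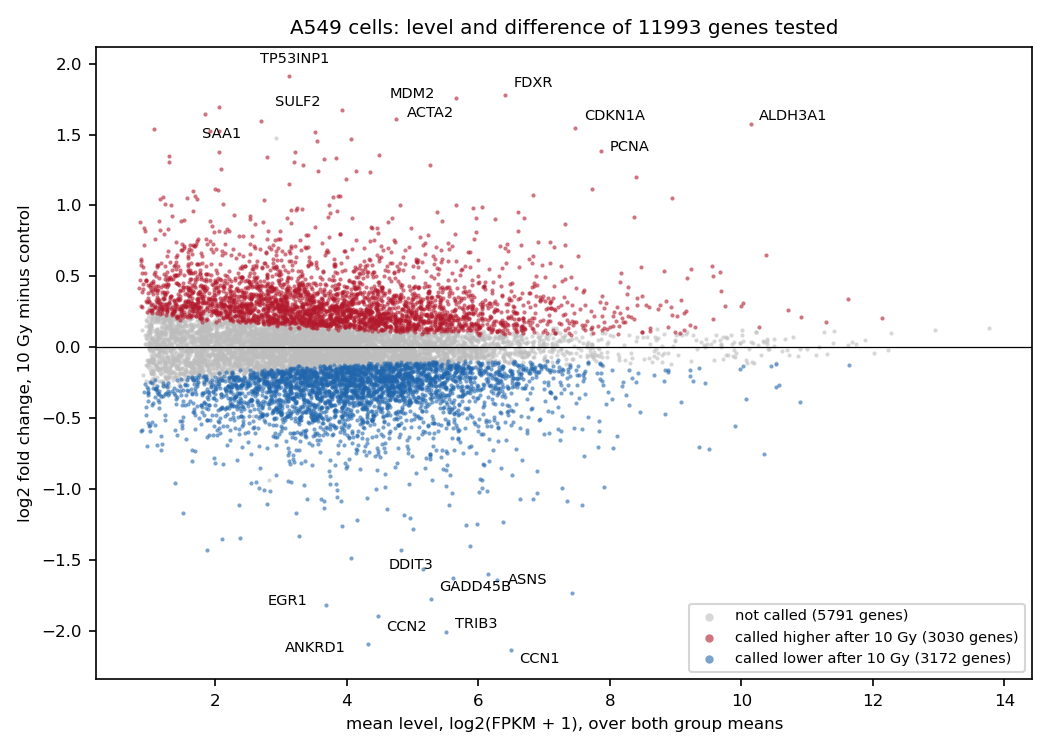
Mean level over both groups (x axis, log2(FPKM + 1)) against the log2 fold change between 3 irradiated and 3 control libraries (y axis) for the 11993 genes tested, with genes called higher in red, called lower in blue and not called in grey. The largest falls (CCN1 -2.14, ANKRD1 -2.09) and the largest rises (TP53INP1 1.92, FDXR 1.78) lie at middle and high levels, and ALDH3A1 is both abundant and among the leading rises.

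Most p53-linked genes rose. Of 55 such genes in 3 lists, 54 were tested, 46 were higher, 7 lower, and their median log2 fold change was 0.74. Full p53 sites of the usual consensus, with no spacer and at most 2 mismatches outside the fixed C and G, were looked for on both strands in the RefSeq promoter windows (GRCh38.p14, 250 bases before to 50 bases after each start), which covered 9831 of the genes tested. They were found for 4 of the 42 p53-linked genes with a window (9.52%), against 0.346% of all genes tested. The sites are shown because they carry the sequence that p53 reads, at chr12:68808918-68808947 for MDM2, chr11:47214964-47214993 for DDB2, chr10:88991304-88991333 for FAS and chr15:88621301-88621330 for AEN, all on the plus strand and with the 20 bases of the match in capitals. A match is a description of the sequence, not a measured binding site.
MDM2: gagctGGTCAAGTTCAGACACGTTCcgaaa
DDB2: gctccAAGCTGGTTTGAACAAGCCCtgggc
FAS: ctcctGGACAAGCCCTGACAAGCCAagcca
AEN: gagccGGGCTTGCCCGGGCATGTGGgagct

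Of 15 genes of arrest and feedback on p53, 12 were higher and 3 lower after radiation, with a median of 0.87. MDM2 (chr12:68808172-68850686), the ubiquitin ligase that degrades p53, had 28.4, 25.8 and 25.6 FPKM in the controls and 89.5, 102 and 86.95 after radiation. The irradiated libraries were all above the controls, 3.49-fold on average (log2 fold change 1.76, SE 0.06, adjusted p = 8.02e-10). CDKN1A (chr6:36676463-36687332), which encodes the cyclin-dependent kinase inhibitor p21, went from 101, 106 and 103 to 318, 294 and 297 FPKM, again with no overlap (log2 fold change 1.54, SE 0.04, adjusted p = 8.33e-11). TP53INP1, a proapoptotic p53 target, had the largest rise of all genes tested, from 3.62, 3.49 and 3.31 to 15.4, 16.2 and 15.98 FPKM (log2 fold change 1.92, SE 0.06, adjusted p = 2.28e-10). Its span lies wholly within that of NDUFAF6, which had 4.24, 3.80 and 4.01 FPKM in the controls and 4.38, 3.91 and 3.99 after radiation. How reads of overlapping genes were assigned is not given in the sources used here. The antiproliferative gene BTG2 rose from 9.99, 8.37 and 8.70 to 27.2, 28.2 and 24.6 (log2 fold change 1.47, SE 0.07, adjusted p = 1.12e-08). ZMAT3, an RNA-binding p53 target, rose by 1.29 and PPM1D, the phosphatase that switches off the damage kinases, by 1.06 on the log2 scale. Among the genes of this list that fell were GADD45A, a growth arrest gene, from 117, 110.0 and 104 to 73.4, 82.05 and 72.3 FPKM (log2 fold change -0.53, SE 0.05, adjusted p = 8.36e-06), and MDM4, the partner of MDM2 (-0.26). The MDM4 libraries lay between 5.78 and 6.57 FPKM in the controls and between 4.25 and 5.49 after radiation, and its call was lost without 10 Gy replicate 1 (adjusted p = 0.0937), control replicate 1 (0.0810) or control replicate 2 (0.0665).

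Among p53 targets of cell death, 17 were in the table, 16 were tested, 13 were higher and 2 lower, with a median of 0.45. FAS, the death receptor, rose from 7.38, 6.31 and 6.39 to 17.5, 18.1 and 16.1 FPKM (log2 fold change 1.25, SE 0.07, adjusted p = 3.33e-08). Its span shares 27288 bases with that of ACTA2, one of the leading rises, and the FAS site printed above lies within that shared stretch. The decoy receptor TNFRSF10D rose by 1.24 and the mitochondrial clearance gene SPATA18 by 1.30, the latter passing the filter only through its irradiated libraries. BAX, the effector of mitochondrial permeabilization, went from 67.2, 69.1 and 62.1 to 115, 110.0 and 106 FPKM (log2 fold change 0.73, SE 0.05, adjusted p = 1.50e-07). BBC3, which encodes PUMA, had 9.81, 13.98 and 12.3 FPKM in the controls and 19.8, 16.7 and 17.2 after radiation (log2 fold change 0.54, SE 0.10, adjusted p = 7.31e-04). Neither BAX nor BBC3 had overlapping groups. AEN, an apoptosis-enhancing nuclease, changed by 0.18, while PMAIP1, which encodes NOXA, and the death receptor TNFRSF10A were lower (-0.25 and -0.22 on the same scale). With all 18 libraries in 1 fit, AEN (adjusted p = 0.292), PMAIP1 (0.221) and TNFRSF10A (0.0618) no longer passed. In that fit the spread of each gene is shared with the libraries of the other lines.

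The p53 targets of repair and metabolism gave 21 higher and 2 lower of 23 tested, with a median of 0.78. FDXR (chr17:74862497-74872994), ferredoxin reductase of the mitochondria, had 45.0, 46.95 and 42.4 FPKM in the controls and 157, 156 and 154 after radiation. Every irradiated library exceeded every control by more than 3 times (log2 fold change 1.78, SE 0.04, adjusted p = 3.41e-11). SESN1, a stress-induced inhibitor of mTORC1 signalling, rose from 5.86, 5.39 and 5.97 to 18.1, 19.4 and 17.4 FPKM (log2 fold change 1.52, SE 0.06, adjusted p = 2.55e-09), and POLH, the polymerase that copies past ultraviolet lesions, from 6.01, 5.46 and 6.76 to 17.7, 19.2 and 18.2 (log2 fold change 1.46, SE 0.07, adjusted p = 1.16e-08). The antiviral gene TRIM22 rose by 1.53 from a control mean of 1.44 FPKM. The damage recognition genes of nucleotide excision repair were also higher, DDB2 by 1.07 and XPC by 0.89, as was the ribonucleotide reductase subunit RRM2B by 0.96. GDF15, a stress cytokine, went from 76.7, 81.9 and 72.8 to 132, 116 and 136 FPKM (log2 fold change 0.72, SE 0.06, adjusted p = 1.40e-06), but did not pass with all 18 libraries in 1 fit (adjusted p = 0.227). That fit shares its spread with the other lines, and GDF15 was at 29.7, 3.01 and 32.1 FPKM in the irradiated BEAS-2B libraries. SESN2, a paralogue of SESN1 that ATF4 also induces, fell from 15.2, 16.1 and 17.6 to 11.4, 10.7 and 9.83 (log2 fold change -0.57, SE 0.07, adjusted p = 2.38e-05), and the lipase ABHD4 fell by 0.18.

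**Figure D2:**
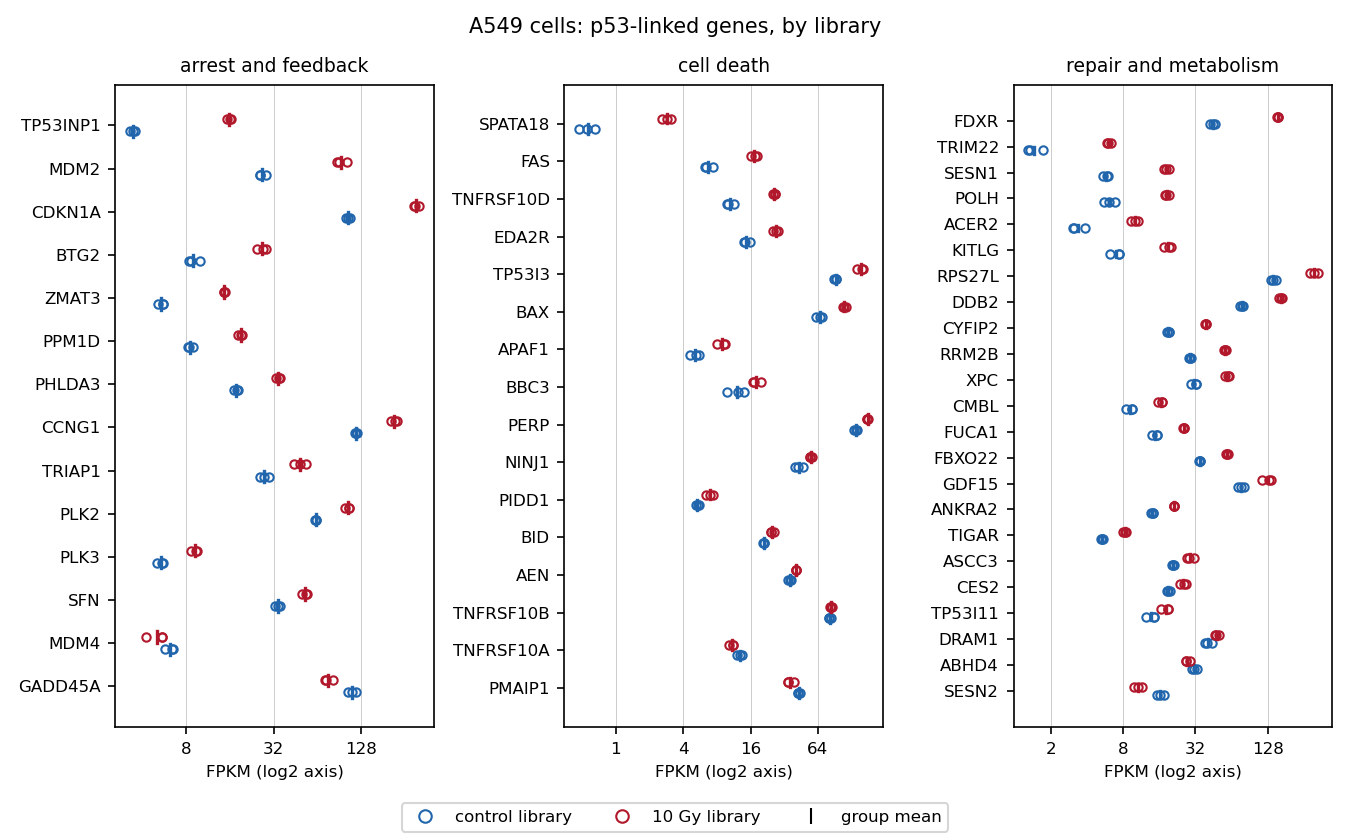
FPKM of each control (blue) and 10 Gy (red) library of A549 cells on a log2 axis, with a bar at each group mean, for tested genes of the 3 p53 lists, ordered by log2 fold change. The groups are separated for TP53INP1, MDM2, CDKN1A, FAS and FDXR, while GADD45A and SESN2 lie lower after radiation.

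All 22 genes of the ATF4 list fell. Their median log2 fold change was -0.98, against a background in which 26.4% of genes were lower, and 10 of the 22 fell by at least 1. The C/EBP-ATF response element, the site that ATF4 binds with its partners, was searched as TGATGNAA on both strands, a motif chosen after the values had been seen. It was present in the windows of 7 of the 20 list genes that have one (35.0%) and of 2.71% of all genes tested. Such sites, in capitals, are shown for 4 genes of the list, the asparagine synthetase ASNS, the glutathione-degrading enzyme CHAC1, the transcription factor CEBPG and the alanyl-tRNA synthetase AARS1, at chr7:97872458-97872487 (minus strand) for ASNS, chr15:40953251-40953280 (plus strand) for CHAC1, chr19:33374060-33374089 (plus strand) for CEBPG and chr16:70289675-70289704 (minus strand) for AARS1. In CHAC1 and AARS1 the match lies on the strand opposite to the gene.
ASNS: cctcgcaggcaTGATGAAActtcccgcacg
CHAC1: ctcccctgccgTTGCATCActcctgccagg
CEBPG: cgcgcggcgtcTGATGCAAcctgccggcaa
AARS1: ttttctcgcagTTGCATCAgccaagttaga

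TRIB3 (chr20:380760-397559), a pseudokinase that ATF4 and DDIT3 induce, had 91.7, 89.96 and 90.4 FPKM in the controls and 22.9, 21.9 and 20.5 after radiation. The means were 90.7 ± 0.890 and 21.8 ± 1.23 (SD, n = 3), so that TRIB3 was 4.16-fold lower (log2 fold change -2.01, SE 0.04, adjusted p = 3.41e-11). ASNS, asparagine synthetase, went from 135, 143 and 135 to 43.95, 42.6 and 43.2 FPKM (log2 fold change -1.65, SE 0.04, adjusted p = 3.41e-11). DDIT3, which encodes the stress factor CHOP, went from 83.6, 88.2 and 84.3 to 25.5, 26.7 and 28.7 (log2 fold change -1.63, SE 0.05, adjusted p = 1.87e-10). The glutathione-degrading enzyme CHAC1 fell from 27.4, 28.1 and 25.9 to 9.68, 9.09 and 8.36 (log2 fold change -1.49, SE 0.06, adjusted p = 2.42e-09). PPP1R15A, the phosphatase subunit that ends the stress response, fell by 1.41 on the log2 scale. The tRNA synthetases GARS1 and AARS1 fell by 1.11 and 1.07, the serine pathway enzymes PSAT1 and PHGDH by 1.03 and 0.98, and MTHFD2, of mitochondrial folate metabolism, by 0.99. ATF4 mRNA itself was lower, from 343, 356 and 329 to 219.7, 224 and 220.3 FPKM (log2 fold change -0.63, SE 0.04, adjusted p = 1.04e-07). The smallest changes of the list were those of VLDLR (-0.14) and of the transcription factor CEBPB (-0.17). VLDLR lost its call when 10 Gy replicate 1 or 2 or control replicate 1 or 3 was left out (adjusted p between 0.0613 and 0.0718).

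Most YAP targets were lower, while the mRNAs of YAP1 and TAZ themselves were not. Of 18 genes of this list, 12 were lower and 2 higher, with a median of -0.51. The TEAD site was searched as CATTCC on both strands, again chosen after the values had been seen, and was present for 9 of the 14 genes with a window (64.3%) against 14.7% of all genes tested. The stretches from 200 to 51 bases before the start are shown for CCN2 (chr6:131951423-131951572, minus strand), with 3 matches in capitals, read on the opposite strand, and ANKRD1 (chr10:90921138-90921287, minus strand), with 1. CCN1 had no window in the table.
CCN2: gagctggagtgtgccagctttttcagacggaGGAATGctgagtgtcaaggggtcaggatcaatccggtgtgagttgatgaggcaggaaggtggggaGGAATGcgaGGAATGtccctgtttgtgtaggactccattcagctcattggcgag
ANKRD1: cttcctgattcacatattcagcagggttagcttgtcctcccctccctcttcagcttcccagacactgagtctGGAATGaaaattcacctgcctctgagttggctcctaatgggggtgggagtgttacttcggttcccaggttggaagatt

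CCN1 (chr1:85580761-85583950), a matricellular protein gene formerly called CYR61, had 191, 188 and 186 FPKM in the controls and 38.3, 43.9 and 44.0 after radiation. This was the largest fall of all genes tested, 4.48-fold (log2 fold change -2.14, SE 0.05, adjusted p = 3.41e-11). ANKRD1 (chr10:90912096-90921087), which encodes a nuclear ankyrin repeat protein, went from 38.9, 39.9 and 42.7 to 8.57, 8.60 and 9.02 (log2 fold change -2.09, SE 0.05, adjusted p = 3.41e-11). CCN2, the connective tissue growth factor gene, went from 40.6, 42.05 and 43.2 to 10.5, 10.4 and 10.6 FPKM (log2 fold change -1.90, SE 0.04, adjusted p = 3.41e-11). None of these 3 genes had overlapping groups. The scaffold genes AMOTL2 and AJUBA fell by 0.96 and 0.87 on the log2 scale. YAP1 had 42.8, 39.6 and 42.2 FPKM in the controls and 39.5, 44.8 and 41.5 after radiation (log2 fold change 0.01, SE 0.05, adjusted p = 0.851). WWTR1, which encodes TAZ, was slightly higher (0.18), as was the motin gene AMOTL1 (0.29).

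Immediate early and ERK feedback genes fell as well, 19 of 23 tested and none in the other direction, with a median of -0.40. EGR1, a zinc finger factor, had 25.2, 20.8 and 23.7 FPKM in the controls and 6.12, 5.78 and 5.63 after radiation (log2 fold change -1.82, SE 0.07, adjusted p = 1.92e-09). MYC went from 47.1, 47.7 and 44.6 to 18.96, 19.1 and 20.7 FPKM (log2 fold change -1.21, SE 0.05, adjusted p = 2.67e-09), and the AP-1 subunit FOSL1 from 91.5, 94.4 and 85.6 to 43.2, 41.5 and 47.3 (log2 fold change -1.02, SE 0.05, adjusted p = 2.52e-08). The groups of these 3 genes were separate. DUSP1, a phosphatase of the MAP kinases, fell by 0.99, the same as JUNB, and IER2 by 1.002 on the log2 scale. FOS had 3.51, 3.11 and 3.06 FPKM in the controls and 2.99, 2.64 and 3.08 after radiation, with overlapping groups (adjusted p = 0.233). In the list of EGFR family and ligand genes, 5 were tested, 3 were lower and none higher. The list also holds ERRFI1, but not the ligands AREG and HBEGF, which are given below. EGFR fell from 64.7, 58.3 and 65.8 to 48.0, 49.05 and 54.04 FPKM (log2 fold change -0.32, SE 0.06, adjusted p = 5.14e-04), and the feedback inhibitor ERRFI1 by 0.73 on the log2 scale.

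**Figure D3:**
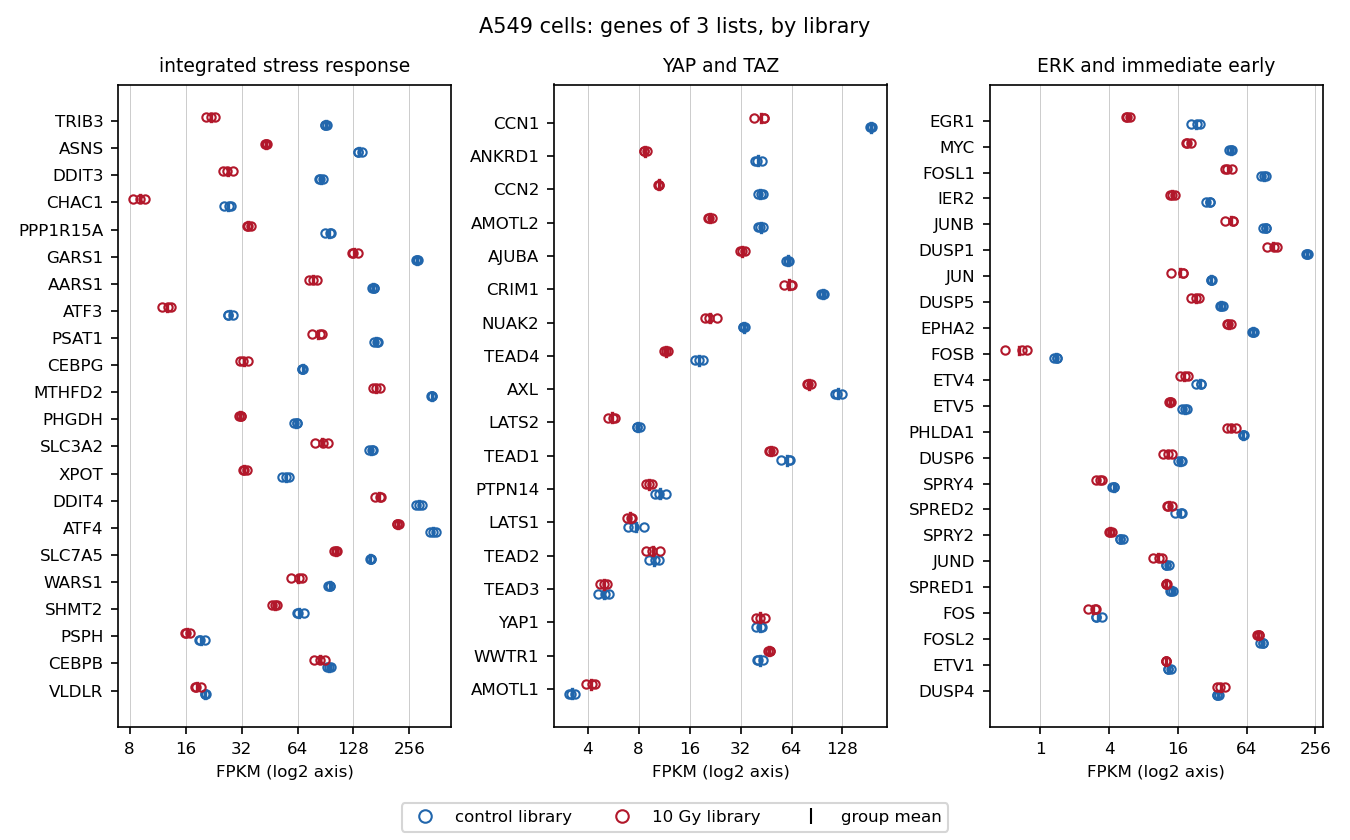
FPKM of each control (blue) and 10 Gy (red) library on a log2 axis, with a bar at each group mean, for the tested genes of the integrated stress response (22), YAP and TAZ (18) and ERK and immediate early (23) lists, ordered from the largest fall. Red points lie left of blue ones for TRIB3, CCN1 and EGR1 and overlap them for YAP1 and FOS.

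Cell cycle genes moved in both directions. Among 45 DNA replication and nucleotide supply genes, 20 were lower and 9 higher, with a median of -0.11. The sliding clamp PCNA was among the 9, going from 141, 144 and 146 to 380.0, 400.1 and 353 FPKM (log2 fold change 1.38, SE 0.05, adjusted p = 6.29e-10). PCNA is also a known p53 target. The helicase subunit MCM6 fell from 25.6, 26.9 and 28.8 to 15.5, 15.7 and 15.1 FPKM (log2 fold change -0.77, SE 0.05, adjusted p = 1.90e-07). MCM5, another subunit, went from 20.6, 22.6 and 21.6 to 12.7, 13.2 and 12.3, and CDC45, which joins them at the fork, from 12.9, 13.5 and 12.9 to 8.31, 8.57 and 7.74. Those groups were separate, with log2 fold changes of -0.72 and -0.62. GINS4 of the same helicase complex was higher (0.55), as was thymidylate synthase TYMS (0.43). E2F1, the transcription factor that drives these genes, fell from 7.59, 8.93 and 9.27 to 5.76, 4.92 and 4.89 FPKM (log2 fold change -0.63, SE 0.08, adjusted p = 4.89e-05), and the repressor E2F7 rose from 2.99, 2.61 and 2.74 to 4.93, 5.57 and 4.85 (log2 fold change 0.69, SE 0.07, adjusted p = 1.17e-05).

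Of 39 mitosis genes, 14 were higher, 5 lower and 20 not called, with a median of 0.06. Without 10 Gy replicate 2, 10 were lower. CCNB1, the mitotic cyclin, rose from 42.8, 46.04 and 42.2 to 62.5, 71.6 and 60.1 FPKM (log2 fold change 0.55, SE 0.06, adjusted p = 1.34e-05), and its kinase CDK1 from 78.9, 77.3 and 79.05 to 93.02, 99.1 and 89.2 (log2 fold change 0.25, SE 0.04, adjusted p = 3.44e-04). The securin gene PTTG1 and the spindle gene ASPM rose by 0.50 and 0.46. AURKB, the kinase of the chromosomal passenger complex, fell from 46.2, 48.9 and 44.1 to 31.5, 32.98 and 30.8 (log2 fold change -0.53, SE 0.05, adjusted p = 2.31e-06), and the cytokinesis gene ECT2 by 0.40 on the log2 scale. Among G1 genes, 5 of 22 were higher and 10 lower. CCND1 and CCNE1, the D- and E-type cyclins, were higher (0.31 and 0.24), CDK4 was lower (-0.44), and RB1 had 22.8, 18.8 and 21.9 FPKM in the controls and 21.02, 23.6 and 24.1 after radiation (adjusted p = 0.212).

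The windows of both lists were searched for elements known from such genes. E2F sites (TTTGGCGC or TTTCCCGC, both strands) were found for 18 of the 38 replication genes (47.4%) and 4.7% of all genes tested. The CHR element (TTTGAA, both strands) was found for 24 of the 33 mitosis genes (72.7%) against 13.4%, and the CCAAT box for 28 of the 33 (84.8%) against 43.6%. They are shown for MCM6, which has a pair of E2F sites at chr2:135876577-135876606 and chr2:135876515-135876544 (minus strand), and for a CHR match of CDK1 (chr10:60778397-60778426, plus strand) and of ASPM (chr1:197146765-197146794, minus strand), with the element in capitals. The CDK1 match shown begins at base -69 from a start, and others, not shown, begin at -161, -13 and 10. Which of them acts was not tested. In ASPM the element is read on the strand opposite to the gene.
MCM6, first site: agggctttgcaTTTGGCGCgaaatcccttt
MCM6, second site: cattggtcaggTTTGGCGCgaaatctccag
CDK1: ctgattggctgcTTTGAAagtctacgggct
ASPM: cggatgcaatcaTTCAAAtgaagcgccgcc

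DNA repair genes outside the p53 lists showed no common direction. Homologous recombination and Fanconi anaemia genes had 6 higher and 11 lower of 31 tested, and end joining genes 1 higher and 3 lower of 13, with 2 higher without 10 Gy replicate 1 or control replicate 1. The count of lower recombination genes dropped to 7 without 10 Gy replicate 1 and to 6 without control replicate 1. EXO1, the nuclease that resects breaks, fell from 23.7, 23.02 and 24.4 to 11.8, 13.7 and 12.4 FPKM (log2 fold change -0.86, SE 0.06, adjusted p = 1.83e-07). FANCD2, the central Fanconi protein gene, rose from 9.90, 9.47 and 9.86 to 12.8, 13.9 and 12.7 (log2 fold change 0.39, SE 0.05, adjusted p = 8.12e-05). Among 16 checkpoint genes, 4 were higher and 5 lower, with ATM, the kinase that senses breaks, up by 0.40 and CHEK1 at -0.37. The count of lower checkpoint genes was 3 without 10 Gy replicate 1, control replicate 1 or control replicate 3. Replication-dependent histone mRNAs lack poly(A) tails, and 14 of 58 passed the filter in these poly(A)-selected libraries. Of these, 6 were lower and 2 higher. H4C3 fell from 9.13, 8.19 and 7.91 to 3.03, 4.60 and 3.49 FPKM, H2BC13 was at 1.76, 2.31 and 3.79 and 0.22, 1.07 and 1.37, and H2BC5 rose by 0.47. The rise of H2BC5 was between 0.28 and 0.61 when each library was left out. H4C14 and H4C15 carry the same value in every library and cannot be told apart. LMNB1, a lamin that is often lost in senescence, had 27.1, 27.8 and 29.3 FPKM in the controls and 24.9, 27.4 and 24.5 after radiation (adjusted p = 0.0543).

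BCL2 family and caspase genes gave 4 higher and 10 lower of 22 tested. The survival genes MCL1 and BIRC2 went from 176, 181 and 182 to 120.1, 114 and 127 FPKM and from 77.8, 77.4 and 76.5 to 49.3, 51.99 and 51.3, which are log2 fold changes of -0.57 and -0.59. BCL2L11, which encodes the death activator BIM, rose from 3.95, 4.33 and 3.83 to 6.65, 6.84 and 6.56 (log2 fold change 0.61, SE 0.06, adjusted p = 9.99e-06).

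Most of the acute-phase, complement and coagulation genes that were tested rose. Of 17 tested, 14 were higher and none lower, with a median of 0.50. C3, the central complement component, went from 55.5, 53.5 and 56.3 to 103, 102 and 107 FPKM (log2 fold change 0.91, SE 0.04, adjusted p = 4.44e-09). SAA1, an acute-phase apolipoprotein, was at 2.60, 3.59 and 2.02 in the controls and 9.74, 9.98 and 10.7 after radiation (log2 fold change 1.596, SE 0.12, adjusted p = 5.86e-07). Its near-identical neighbour SAA2 rose by 1.38, and reads may have been split between them. The copper carrier CP rose by 1.07. Of the 29 genes of the list, 12 did not pass the filter, and 1 gene was lower without 10 Gy replicate 3. Some liver genes were near 0, with HP and SERPING1 listed at or under 0.06 FPKM in all 6 libraries.

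Most NRF2 targets rose, several from high levels, while the mRNAs of the factor and its inhibitor fell. Of 38 genes, 27 were higher and 5 lower, with a median of 0.24. ALDH3A1 (chr17:19737984-19748298), an aldehyde dehydrogenase, went from 665, 661 and 645 to 2029.6, 1942 and 1895 FPKM (log2 fold change 1.57, SE 0.04, adjusted p = 7.54e-11). The aldo-keto reductases AKR1C1, AKR1C2 and AKR1C3 rose by 1.201, 0.92 and 1.06. Their sequences are similar to different degrees, so their separate values are uncertain, most of all for AKR1C1 and AKR1C2. AKR1C1 was at 226, 230.4 and 205 in the controls and 506, 480.2 and 539 after radiation. AKR1B10 and NQO1, both detoxifying reductases, rose less, by 0.49 and 0.24. UGT1A6 rose by 1.04, although its exons are shared with the other UGT1A genes. NFE2L2, which encodes NRF2, fell from 96.1, 91.8 and 95.02 to 62.4, 62.4 and 65.95 FPKM (log2 fold change -0.56, SE 0.04, adjusted p = 2.89e-07), and KEAP1 from 15.1, 16.2 and 15.7 to 13.6, 14.1 and 12.9 (log2 fold change -0.20, SE 0.05, adjusted p = 0.00649). SLC7A11, the cystine transporter, which is also an ATF4 target, fell from 83.3, 75.4 and 88.6 to 51.9, 58.05 and 50.9 (log2 fold change -0.61, SE 0.06, adjusted p = 7.67e-06), and OSGIN1 by 0.41 on the log2 scale. The core of the antioxidant response element, which NRF2 binds, was searched as TGACNNNGC on both strands, a choice made after the values had been seen, and was present for 11 of the 27 genes with a window (40.7%) against 19.6% of all genes tested.

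Of 32 cytokine, chemokine and growth factor genes tested, 15 were lower and 7 higher, with a median of -0.15. IL11, of the IL6 family, fell from 118, 125 and 124 to 41.1, 36.2 and 41.5 FPKM (log2 fold change -1.603, SE 0.05, adjusted p = 5.75e-10). The EGFR ligands AREG and HBEGF went from 40.9, 43.1 and 45.3 to 18.2, 17.4 and 19.5 and from 17.4, 18.99 and 16.2 to 6.59, 7.65 and 8.15 FPKM. Both pairs of groups were separate (-1.19 and -1.13 on the log2 scale), but AREG did not pass with all 18 libraries in 1 fit (adjusted p = 0.0661). IL6 was at 156, 159 and 149.9 FPKM in the controls and 103, 105 and 134 after radiation (log2 fold change -0.45, SE 0.08, adjusted p = 4.48e-04), and the chemokine CXCL8 566, 522 and 532 and 369.6, 371 and 431 (log2 fold change -0.47, SE 0.06, adjusted p = 3.37e-05). In both, 10 Gy replicate 3 was the irradiated library closest to the controls. CXCL1 had 718, 687 and 667 FPKM in the controls and 712, 705 and 736 after radiation, with overlapping groups (adjusted p = 0.264). CSF3, the granulocyte factor, rose by 0.93 from a control mean of 0.837 FPKM, and the neutrophil chemokine CXCL5 by 0.57.

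Of 16 NF-kB genes, 11 were lower and 3 higher, with a median of -0.25. The adaptor TRAF1 fell from 5.59, 6.62 and 5.43 to 1.63, 1.63 and 1.79 FPKM (log2 fold change -1.35, SE 0.08, adjusted p = 8.43e-08), the subunit RELB fell by 0.56, and the nuclear inhibitor NFKBIZ rose by 0.33. Of 14 inflammasome and gasdermin genes, 9 passed the filter, and IL18, which encodes a cytokine matured by CASP1, had the highest level, at 60.9, 62.6 and 59.4 FPKM in the controls and 54.3, 51.6 and 57.1 after radiation. Of the 9, 4 were higher and 2 lower, and just 1 was lower without 10 Gy replicate 1 or control replicate 1. CASP1, the inflammatory caspase, was at 2.08, 1.39 and 1.79 in the controls and 3.40, 3.50 and 3.15 after radiation (log2 fold change 0.67, SE 0.09, adjusted p = 1.09e-04), and NLRP1 rose by 0.51 and GSDME by 0.37. NLRP3 did not pass the filter and was listed at 0.04, 0.07 and 0.04 in the controls and 0.02, 0 and 0 after radiation. PYCARD, which encodes the inflammasome adaptor ASC, was listed at 0 in every A549 library and at a mean of 31.7 FPKM in BEAS-2B controls. IL1B was at 1.22, 0.80 and 0.73 FPKM in the controls and 0.95, 1.33 and 1.90 after radiation (log2 fold change 0.31, SE 0.14, adjusted p = 0.0833), with overlapping groups.

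Interferon-stimulated genes gave 15 higher and 5 lower of 30 tested, with a median of 0.20. IFIT1, an antiviral RNA-binding protein gene, rose from 1.27, 1.14 and 1.08 to 3.50, 4.15 and 3.33 FPKM (log2 fold change 1.10, SE 0.09, adjusted p = 8.72e-07), and HERC5, the ISG15 ligase, by 0.58, with control levels under 1, so that it passed the filter only through its irradiated libraries. The factor IRF1 fell from 36.4, 38.2 and 35.5 to 23.7, 26.9 and 25.5 (log2 fold change -0.52, SE 0.05, adjusted p = 6.38e-06). In the list of immune checkpoint and NK cell ligands, 5 of 12 were lower and 3 higher. CD274, which encodes PD-L1, fell from 14.6, 14.2 and 14.3 to 4.70, 4.65 and 6.04 FPKM (log2 fold change -1.33, SE 0.08, adjusted p = 8.77e-08). Its relative PDCD1LG2 fell by 0.82 and the NKG2D ligand ULBP1 by 1.06, while the NKG2D ligands ULBP2 and MICB rose by 0.32 and 0.39. MHC class I and antigen processing genes gave 6 higher and 1 lower of 17.

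Among actin and contractile genes, 15 of 22 were lower and 4 higher, with a median of -0.22. SRF, the transcription factor of the actin genes, fell from 12.6, 11.5 and 11.2 to 7.01, 7.49 and 7.58 FPKM (log2 fold change -0.61, SE 0.06, adjusted p = 5.75e-06), and tropomyosin TPM4 by 0.59. Smooth muscle actin ACTA2 stood against this, at 13.9, 14.7 and 14.6 in the controls and 46.5, 44.02 and 47.3 after radiation (log2 fold change 1.61, SE 0.04, adjusted p = 1.61e-10). The myosin light chain MYL6 rose by 0.54. Keratin genes gave 4 lower and none higher of 7 tested. KRT80 fell from 49.3, 46.3 and 51.3 to 20.2, 19.3 and 19.1 (log2 fold change -1.28, SE 0.05, adjusted p = 1.74e-09), KRT81, whose span overlaps that of KRT86, fell by 0.75, and KRT7 by 0.71. The summed level of 6 epithelial markers, KRT7 among them, was between 1713 and 1798 FPKM in the controls and between 1435 and 1528 after radiation. Of 22 epithelial and mesenchymal state genes, 7 were higher and 8 lower, with a median of -0.03 (-0.092 to -0.0022 when each library was left out). Members of both states went both ways. Of the epithelial genes, CDH1, E-cadherin, rose from 6.74, 6.98 and 7.44 to 10.01, 9.65 and 11.3 (log2 fold change 0.49, SE 0.07, adjusted p = 7.86e-05), while the tight junction genes CLDN1 and OCLN fell by 0.79 and 0.41 on the log2 scale. Of the mesenchymal ones, fibronectin FN1 rose by 0.28, and N-cadherin CDH2 fell by 0.41 and vimentin VIM by 0.13. SULF2, an enzyme that edits heparan sulfate outside the cell, was one of the leading rises, from 7.37, 7.56 and 7.58 to 26.4, 25.3 and 26.7 FPKM (log2 fold change 1.67, SE 0.05, adjusted p = 1.61e-10). In the TGF-beta and BMP list, 9 of 21 were higher and 6 lower, with the decoy receptor BAMBI up by 0.80 and SMAD2 at -0.50.

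GADD45B and PCK2 were leading falls outside the groups above. GADD45B, a stress gene of the GADD45 family, went from 70.1, 70.8 and 72.1 to 20.2, 19.99 and 19.8 FPKM (log2 fold change -1.78, SE 0.04, adjusted p = 3.41e-11). PCK2, the mitochondrial phosphoenolpyruvate carboxykinase, went from 59.8, 60.4 and 61.05 to 20.2, 19.9 and 19.3 (log2 fold change -1.56, SE 0.04, adjusted p = 5.76e-11), and its span overlaps that of NRL. Both had separate groups.

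The remaining lists cover protein synthesis, metabolism, signalling, matrix and chromatin. Cytosolic ribosomal protein genes had 4 higher and 2 lower of 79 (7.59%, median 0.02), against 51.7% of all genes, but 10 were lower without 10 Gy replicate 1 and 5 without control replicate 3, 8 were higher without 10 Gy replicate 3 or control replicate 2, and quantile normalization gave 10 higher and 21 lower. The remaining libraries gave 2 to 4 higher and 1 lower. Nuclear-encoded respiratory chain genes had 19 higher and 6 lower of 75 (median 0.05), or 10 lower without 10 Gy replicate 1. Their median was between 0.0053 and 0.082 when each library was left out. Glycolytic genes gave 10 higher and 2 lower of 22, lysosome genes 20 and 3 of 31, and Wnt genes 10 and 2 of 19, with medians of 0.09, 0.16 and 0.21. Of 32 cholesterol and fatty acid synthesis genes, 13 were higher and 5 lower. The sterol reductase gene TM7SF2 rose by 0.85. In the unfolded protein response list, 9 of 20 were higher and 5 lower, and the sensor ERN1 and its target XBP1 fell by 0.73 and 0.80. Collagen genes (10 higher and 5 lower of 23), aldehyde dehydrogenases (6 and 2 of 13) and Notch genes (4 and 5 of 13) had medians between 0.04 and 0.15, and nuclear lamina and chromatin genes (2 and 6 of 14) a median of -0.09, with 2 lower without control replicate 1. The mitochondrially encoded genes were not analysed here.

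**Figure D4:**
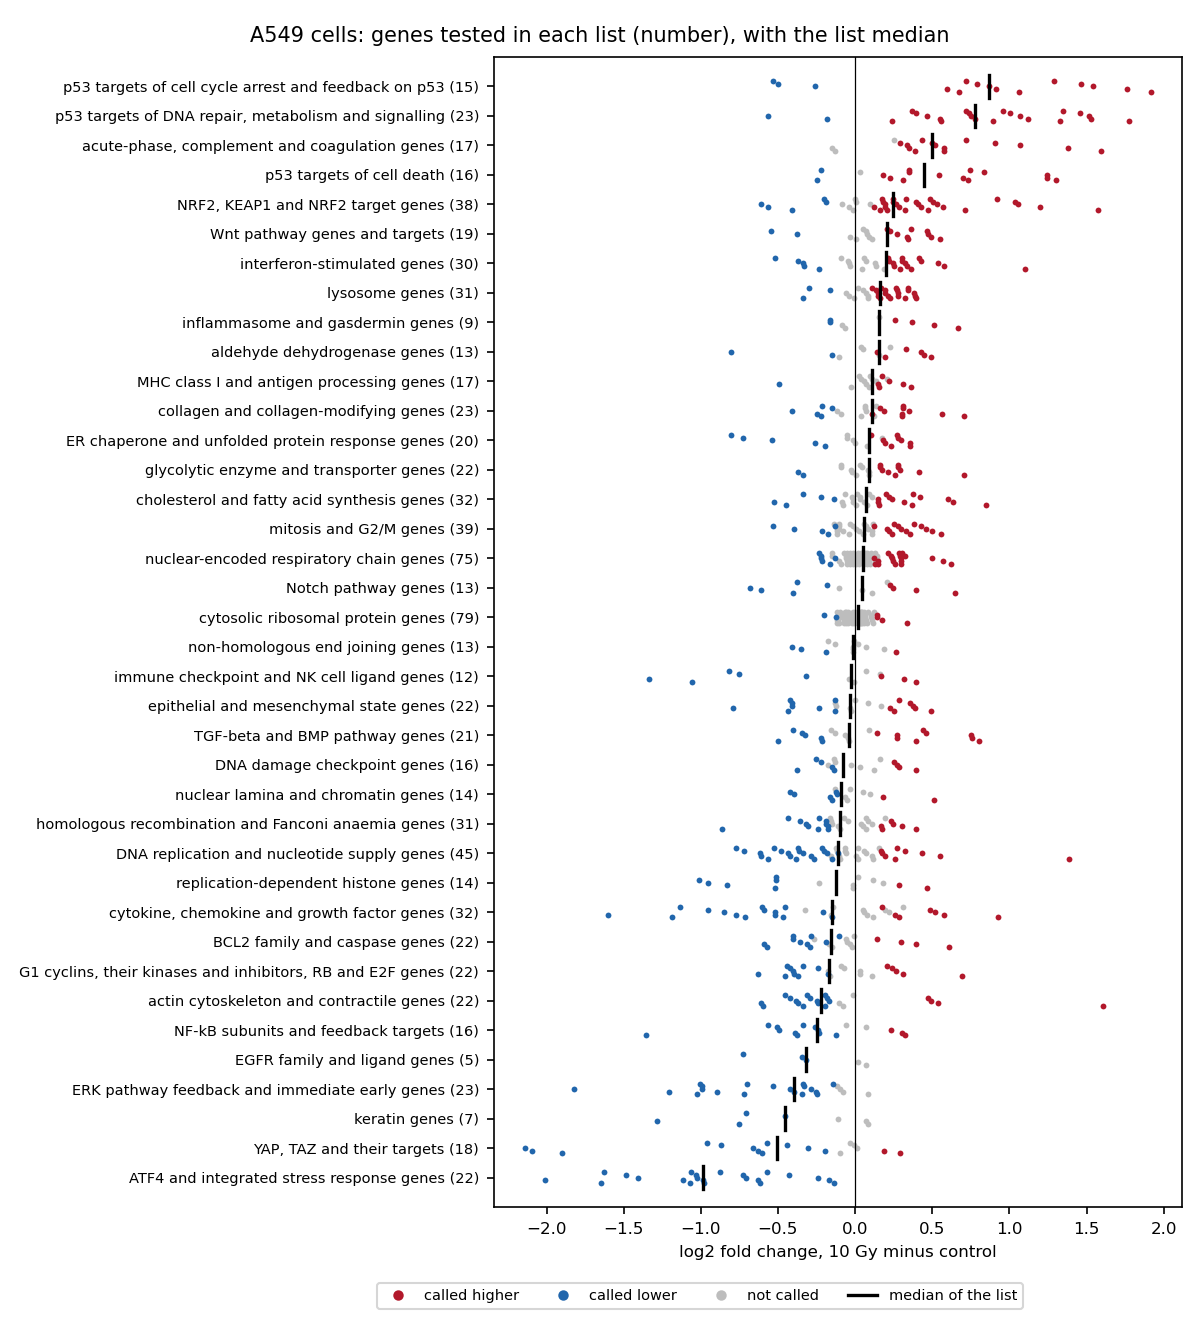
Log2 fold change between irradiated and control A549 cells (x axis) of each gene tested in 38 lists, with called genes in red (higher) or blue (lower), other genes in grey, the number of genes tested in parentheses and the list median as a black bar. The 3 p53 lists and the acute-phase list have the highest medians (0.45 to 0.87), and the integrated stress response list the lowest (-0.98).

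The A549 response was then set against that of H446 cells by testing the difference of the log2 fold changes in 1 limma fit of all 18 libraries, which share 1 estimate of the spread per gene, BEAS-2B included. Of 13071 genes, 4526 (34.6%) differed between these lines, and the A549 response was the higher one for 2524 (19.3%) and the lower one for 2002 (15.3%). In H446 cells, CDKN1A had 75.7, 72.8 and 71.7 FPKM in the controls and 72.4, 63.6 and 65.8 after radiation, so that the response in A549 cells exceeded that in H446 cells by 1.67 (SE 0.45, adjusted p = 0.00803). MDM2 differed by 1.87 (adjusted p = 0.00508) and FDXR by 1.73 (adjusted p = 3.28e-05). Of the arrest and feedback genes, 11 of 15 had a higher response in A549 cells and 1 a lower one, and of the repair and metabolism genes 18 of 23 and 1. The opposite held for mitosis genes. In H446 cells 38 of 39 rose, with a median of 0.71, where 14.8% of all genes tested in that line were higher. The A549 response was below that of H446 cells for 35 of the 39 and above it for none. CCNB1 rose by 0.55 in A549 and by 0.97 in H446 cells (adjusted p of the difference = 0.0253). Of 45 replication genes, 38 fell in H446 cells, where 23.6% of all genes tested in that line were lower. The response in A549 cells was above that in H446 cells for 23 of the 45 and below it for none. PCNA rose by 1.38 in A549 cells and fell by 0.86 in H446 cells (difference 2.24, adjusted p = 1.90e-12). CCN1 went from 118, 114 and 120.5 to 237, 237 and 247 FPKM in H446 cells, against the fall in A549 cells (difference -3.16, adjusted p = 4.50e-12). The integrated stress response genes had a lower response in A549 than in H446 cells for 18 of 22. In H446 cells themselves, 10 of the 22 were lower and 4 higher, with a median of -0.13.

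Against BEAS-2B cells, 3999 of 13071 genes (30.6%) differed in response, the A549 response being higher for 1910 and lower for 2089. BEAS-2B 10 Gy replicate 2 stood apart from its group. Tested alone with limma, BEAS-2B cells had 0 of 11734 genes called between treatments (1446 at an unadjusted p under 0.05), and 231 (1.97%) without that library, 223 higher (1.90%) and 8 lower (0.0682%), a fit added after the data had been seen. CDKN1A had 309.7, 102 and 488 FPKM in the irradiated BEAS-2B libraries and 79.9, 86.4 and 86.1 in their controls, and MDM2 47.5, 16.2 and 87.8 and 18.9, 17.5 and 18.2. Without that library 3925 genes (30.0%) differed, 1815 higher and 2110 lower in A549 cells. The response of CDKN1A differed by -0.01 with all libraries (adjusted p = 0.986) and by -0.65 without replicate 2 (adjusted p = 0.00434), and that of BTG2 by 0.14 (adjusted p = 0.847) and -0.50 (0.00842). For MDM2 the values were 0.63 (0.338) and -0.01 (0.972). FDXR and TP53INP1 had a higher response in A549 cells either way, FDXR by 1.06 (adjusted p = 0.00284) or 0.74 without replicate 2, and TP53INP1 by 1.35 (adjusted p = 0.0013) or 0.97. Of the arrest and feedback genes, 6 had a higher and 2 a lower response in A549 cells, or 5 and 5 without replicate 2, and of the repair and metabolism genes 10 and 2, or 9 and 3. PCNA was at 459, 444 and 476 FPKM in BEAS-2B controls and 434, 445 and 483 after radiation (difference 1.40, adjusted p = 9.13e-10).

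Most genes of the falling lists had a lower response in A549 than in BEAS-2B cells. Of 22 integrated stress response genes, 21 had a lower response in A549 cells, both with and without BEAS-2B 10 Gy replicate 2, with a median difference of -1.05. For TRIB3, with 13.8, 14.8 and 12.9 FPKM in BEAS-2B controls and 16.8, 18.3 and 15.9 after radiation, the difference was -2.29 (SE 0.09, adjusted p = 2.66e-11). The ERK and immediate early genes responded lower in A549 cells for 19 of 23 (18 of the 21 that passed the filter in both lines) and the YAP list for 11 of 18, again the same counts without replicate 2. EGR1 went from 20.1, 25.6 and 19.9 to 61.2, 31.6 and 55.9 FPKM in BEAS-2B cells (difference -2.92, adjusted p = 9.92e-08). Acute-phase and complement genes had a higher response in A549 cells for 14 of 20 genes tested and a lower one for none. Of these genes, 8 passed the filter in both lines, and 7 of the 8 had a higher response in A549 cells. SAA1 was more abundant in BEAS-2B cells, at a control mean of 281 FPKM and 284 after radiation, and its response in A549 cells was higher by 1.59 (adjusted p = 9.82e-06). NRF2 targets had a higher response in A549 cells for 21 of 38 genes and a lower one for 4. Among the 30 of them that passed the filter in both lines, the response was higher for 15 and lower for 4. The counts for these 2 lists were the same without BEAS-2B 10 Gy replicate 2. ALDH3A1 was at a mean of 0.12 FPKM in BEAS-2B controls and 0.167 after radiation, too low for a fold change.

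**Figure D5:**
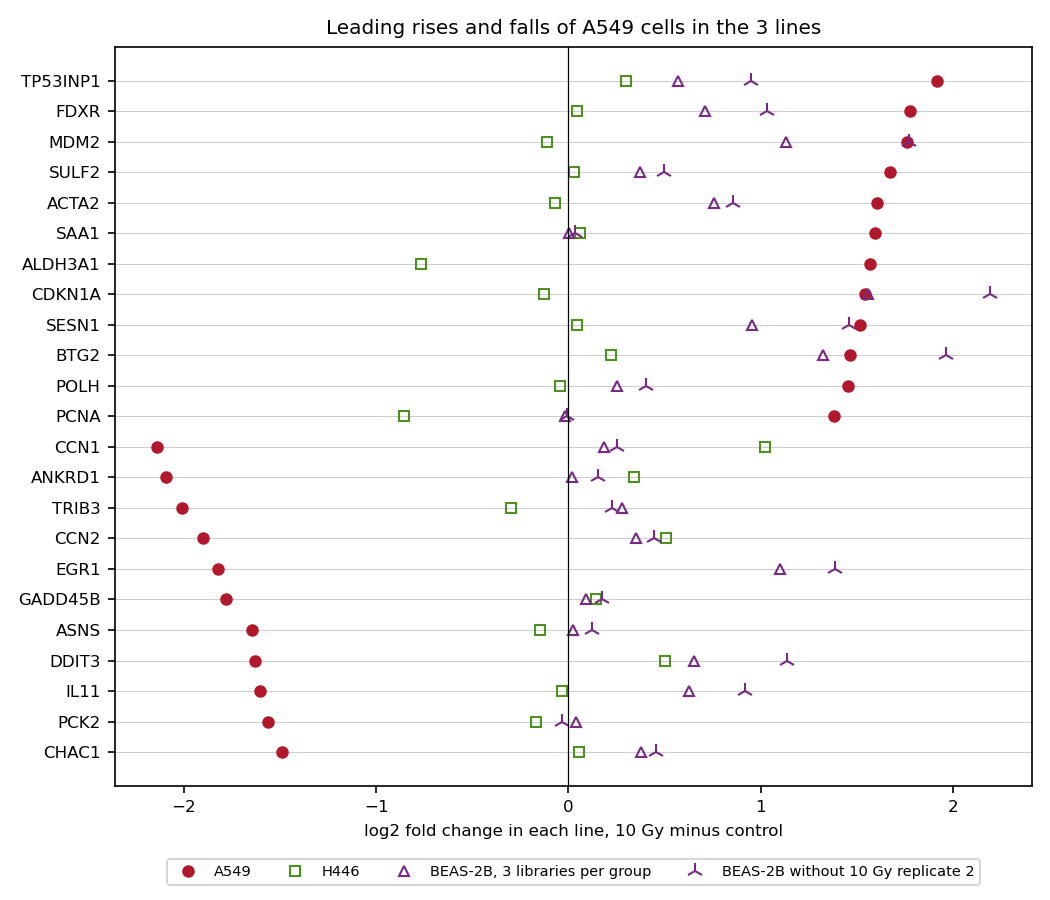
Log2 fold change between irradiated and control cells (x axis) of leading rises and falls of A549 cells (red circles), with the same genes in H446 cells (green squares) and in BEAS-2B cells with all libraries (purple triangles) or without 10 Gy replicate 2 (purple ticks). A gene without a symbol did not pass the filter in that line. CDKN1A, MDM2, SESN1 and BTG2 also lie to the right in BEAS-2B cells, where they were called without 10 Gy replicate 2 and not with all libraries, while CCN1 and TRIB3 lie further to the left in A549 cells than in the other lines.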

How the data were processed

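RNA of control A549 cells and of A549 cells taken 24 h after 10 Gy was selected with oligo(dT) and read from 1 end over 50 bases. The authors deposited 1 table of normalized values per gene and library, read here as FPKM from its range and totals, since the unit is not stated. The submitters' processing notes name HISAT2 2.0.4, Bowtie2 2.2.5, RSEM 1.2.12 and hg38. The annotation, the read number and whether the kit kept strand are not given in the sources used here, so that depth gives no interval. Every per-sample column was matched to a label, and 0 others were left.

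Genes that reached 1 FPKM in 3 or more of the 6 libraries were tested on log2(FPKM + 1) with limma 3.58.1 in R 4.3.3 (lmFit, eBayes with trend, Benjamini-Hochberg adjusted p under 0.05). The pseudocount of 1 understates the change of low genes. Differences between lines came from 1 fit of all 18 libraries with 6 group means. On simulated data the fit recovered 89.5% of 200 changes of 0.5 and 98.5% of 200 changes of 1 (log2) among 11993 genes. Coordinates and promoters are from RefSeq GRCh38.p14.

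The genes compared and the 39 lists were chosen with earlier results of these data known, and lists are described by counts and medians without a set test. Named genes were the 12 largest rises and falls with separate groups and a mean FPKM of at least 10, the 3 largest of each list in each direction, defining members and cell type markers. DDB2, AEN, ZMAT3, PPM1D, XPC, RRM2B, CEBPG, AARS1, PPP1R15A, GARS1, PSAT1, PHGDH, MTHFD2, VLDLR, CEBPB, YAP1, AMOTL2, AJUBA, DUSP1, JUNB, IER2, FOS, H4C14, H4C15, C3, HP, SERPING1, AKR1C2, UGT1A6, CD68, CD14, IL18, PYCARD, OCLN, FN1 and CDH2 were chosen after their values were seen. Some genes that the rule names are not reported here. Alternatives were other normalizations, filters, pseudocounts, limits and fits, a GC and a length trend, a replicate block and leaving out each library.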

Additional observations from a re-analysis of the deposited data

Results flagged for a closer look

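The response to radiation differed between lines by the test of the difference itself. Against H446 cells 4526 genes differed. Among the leading genes and CDKN1A, the response in A549 cells was higher by 1.61 for TP53INP1, 1.73 for FDXR, 1.87 for MDM2 and 1.67 for CDKN1A, and the difference was -3.16 for CCN1, -2.43 for ANKRD1 and -1.71 for TRIB3 (log2 scale). Against BEAS-2B cells 3999 genes differed, with 1.35 for TP53INP1, 1.06 for FDXR, -2.33 for CCN1, -2.11 for ANKRD1 and -2.29 for TRIB3. Each group has 3 libraries, for which the samples' own outliers are not tested.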

How the results depend on the processing

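Named genes and list medians kept their direction under the alternatives tried, except the medians of the end joining, immune ligand and ribosomal protein lists, which changed sign under some and lay between -0.057 and 0.041. Calling only changes of 1 or more in size left 107 genes, 56 higher and 51 lower. Other settings called between 5341 genes (all 18 libraries in 1 fit) and 6373 (trend with GC content removed), against 6202, apart from 4611 at an adjusted p under 0.01, and between 5401 and 5731 when each library was left out. The mitosis median was 0.10 with quantile normalization. The median of the p53 targets of cell death was 0.35 without a filter or with FPKM of at least 1 in every library, and that of the complement list 0.33 without a filter. With a pseudocount of 0.1 the p53 repair and metabolism median was 0.83 and the YAP median -0.54. Leaving out each library gave medians of -0.15 to -0.086 for replication, 0.37 to 0.52 for complement, 0.39 to 0.53 for p53 cell death and 0.73 to 0.81 for p53 repair and metabolism. The cause of these shifts was not tested. Replicates with the same number did not deviate together (r = 0.01, -0.05 and -0.10), and with the number as a block 5903 genes were called, 2877 higher and 3026 lower, with 4655 differing between A549 and H446 and 4161 between A549 and BEAS-2B. Outside the fold limit, 8 of 144 single genes followed lost their call under some alternative: MDM4, VLDLR, CENPA, GDF15, PMAIP1, TNFRSF10A, AEN and AREG. The read number is unknown, so the precision of low values rests on the libraries' spread.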

Other observations

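Of 107 genes that changed by at least 1 on the log2 scale, 54 belonged to none of the lists. The genes named here were chosen after their values were seen. HSPA2, a gene of the HSP70 chaperone family, was at 9.30, 9.57 and 9.80 FPKM in the controls and 21.7, 22.5 and 24.9 after radiation (log2 fold change 1.19, SE 0.06, adjusted p = 1.41e-08), and HSPA1A and HSPA1B of the same family rose by 1.34 and 1.31. HSPA1A and HSPA1B are near-identical copies whose separate values are uncertain. CYGB, which encodes the oxygen-binding cytoglobin, went from 1.37, 1.26 and 1.29 to 6.48, 6.29 and 6.62 FPKM (log2 fold change 1.69, SE 0.07, adjusted p = 2.89e-09), and the lipid kinase gene DGKA rose by 1.24. GRIN2C, a glutamate receptor subunit gene, went from 0.89, 1.17 and 1.02 to 5.19, 5.72 and 5.09 FPKM (log2 fold change 1.64, SE 0.08, adjusted p = 1.63e-08). It lies 964 bases from FDXR on chromosome 17 with 0 genes between them.

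The amino acid transporter gene SLC1A5 fell from 228, 245 and 239 to 109.7, 113 and 111 FPKM (log2 fold change -1.09, SE 0.04, adjusted p = 8.87e-10) and SLC1A4, of the same family, by 1.07 on the log2 scale. EIF4EBP1, which encodes a repressor of translation initiation, fell by 1.02 and the secreted hormone gene STC2 by 1.12. KLF2, a zinc finger factor, went from 6.79, 8.15 and 6.86 to 2.55, 1.81 and 2.41 FPKM (log2 fold change -1.35, SE 0.10, adjusted p = 4.24e-07), and the receptor TNFRSF12A fell from 128, 127 and 122 to 51.98, 54.2 and 52.6 (log2 fold change -1.23, SE 0.04, adjusted p = 2.28e-10). The linker histone gene H1-10 fell by 1.07, while H1-2, another, was higher by 0.28.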
